A study of Mus musculus with 12 samples.

Results

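Cluster 4 of the 12-week spleen is a group of 1002 T cells that combined the highest H2-Oa, Dapl1, Epsti1 and Capn3 levels of its library with 1 of its 2 lowest Pdcd1 levels. Its members are the cells to which the authors' deposited clustering gave number 4. They make up 14.5% of the 6894 cells of that library (exact 95% binomial interval 13.7 to 15.4%) and belong to a series of 20510 cells. The series holds 3 droplet single-cell RNA libraries from female NZB/W F1 mice, a cross of the NZB and NZW strains that develops lupus with kidney disease: spleen at 12 weeks, spleen at 28 weeks and kidney at 28 weeks. No treatment is named for any of them, and in all 3 the cells had been sorted as PD-1+CD44+CD8+ T cells. Each library has 4 entries in the labels, but no file ties a cell to an entry and the number of mice is not stated in the sources used here, so each library counts as 1 sample and no test between libraries is possible. The clusters were drawn on the same transcripts that are compared below, so every difference between cluster 4 and the other cells is a description.

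PD-1, the product of Pdcd1, is an inhibitory receptor that T cells show after their antigen receptor has been engaged, and it stays high on cells that meet antigen again and again. CD8+ T cells that have not been driven to effector life keep the transcription factors TCF-1 and LEF-1 and the lymph node homing receptor CCR7. Effector cells replace these with granzymes, inflammatory chemokines and T-bet. Type I interferon, which is prominent in lupus, induces a further set of genes in nearly any cell, among them many of the Ifi200 family, whose genes lie side by side on chromosome 1.

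The depth of cluster 4 was among the larger of its library. It held 6060568 UMIs (unique molecular identifiers, each standing for 1 captured transcript), 17.4% of the library's 34742303, or 6048 per cell, against 928 to 14345 per cell in the other 9 clusters. Levels are given as CPM, the UMIs of a gene per 1000000 UMIs of its cluster. In cluster 4 a level of 0.495 CPM corresponds to 3 UMIs, which is taken as the floor. Ribosomal protein genes took 38.6% of its UMIs, the second highest share of the 10 clusters after cluster 6 at 40.2%, and mitochondrial transcripts took 1.31%. Cluster 8 had 928 UMIs per cell and 8.98% mitochondrial UMIs, cluster 3 carried haemoglobin transcripts and cluster 10 cell cycle transcripts. These 3 clusters are left out of the other cells in some comparisons below. Across genes they were not equally far from cluster 4. The median absolute log2 difference from cluster 4 was 0.26 for cluster 3, 0.38 for cluster 10 and 1.23 for cluster 8. Of the cell barcodes of cluster 4, 13 also occurred in the 28-week spleen library and 13 in the kidney library. All intervals given cover counting error only.

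Most defining markers of other cell types were at or near 0 in cluster 4. The 3 CD4 T cell markers gave 8 UMIs in all and the 3 NK cell markers 12, with Ncr1 at 0. Of the 4 dendritic cell markers 3 were at 0. Among the B cell markers, Ms4a1 was at 0.495 and Cd79a at 2.15 CPM, while Ighm stood at 230 and Cd79b at 49.8. The summed level of the B cell list was 282, second to cluster 3 at 1117. The other clusters ran from 86.6, with a median of 202. Lyz2 was at 0 and Csf1r at 0.165, and the summed myeloid level of 140 was inside the range of 110 to 1066. Nearly all of that sum was Cst3, a protease inhibitor gene abundant in myeloid cells, at 139 against 204 in the other cells. The 5 erythroid genes summed to 6.77 CPM, against 37158 in cluster 3. Trdc, the constant region of the delta chain, stood at 4.62, against 126 in cluster 3. The T cell genes were at ordinary levels: Cd3e at 1174 (other clusters 595 to 1443), Cd8a at 610 (301 to 807) and Cd8b1 at 1138 (366 to 1240). So the transcripts that define CD8 T cells were present and those of the other cell types checked were nearly absent, apart from Ighm, Cd79b and Cst3, whose part in the results was not tested.

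The genes that name the cluster were each 2.1 to 3.2 times as high as in the other cells pooled, and none was exclusive to it. H2-Oa (ENSMUSG00000024334, GRCm38 chromosome 17, 34092340 to 34095234) encodes the alpha chain of H2-O, which restrains peptide loading of MHC class II molecules and is known from B cells. It stood at 73.6 CPM (95% Poisson interval 66.9 to 80.7) in cluster 4, while the other clusters ran from 3.81 in cluster 7 over a median of 29.3 to 49.1 in cluster 8. Dapl1 (ENSMUSG00000026989, chromosome 2, 59484653 to 59505020), which encodes a small protein related to death-associated protein, was the most abundant of the 5. It stood at 561 (542 to 580), against 42.3 to 428 with a median of 199 in the others, and cluster 10 came next. The intervals of Dapl1 in cluster 4 and in cluster 10 did not overlap, whereas for H2-Oa the interval of cluster 8, with its few UMIs, reached from 26.9 to 82.5.

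Capn3 (ENSMUSG00000079110, chromosome 2, 120456019 to 120504913), a calcium-dependent protease best known from skeletal muscle, had the largest ratio of the 5. Its level was 27.7 (23.7 to 32.2), against 8.75 in the other cells together and 0.401 to 20.6 in the single clusters. Cluster 10, at 20.6 (15.8 to 26.4), and cluster 8, at 17.6 (5.70 to 41.0), overlapped with it. The other calpain genes did not share the difference: the log2 ratio of cluster 4 over the other cells was 0.14 for Capn1, 0.06 for Capn2, -0.02 for the small subunit Capns1 and 0.00 for the inhibitor Cast. Epsti1 (ENSMUSG00000022014, chromosome 14, 77904239 to 78002657), an interferon-induced gene, stood at 282 (269 to 296), with the other clusters between 22.3 and 246, of which cluster 8 reached up to 310 by its interval. Ifi214 (ENSMUSG00000070501, chromosome 1, 173519717 to 173535957), a member of the Ifi200 family, stood at 184 (173 to 195) and was second to cluster 8 at 190 (142 to 247). For these 5 genes cluster 4 was thus the highest in 4 and second in 1, and cluster 7 was the lowest in all 5.

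**Figure D1:**
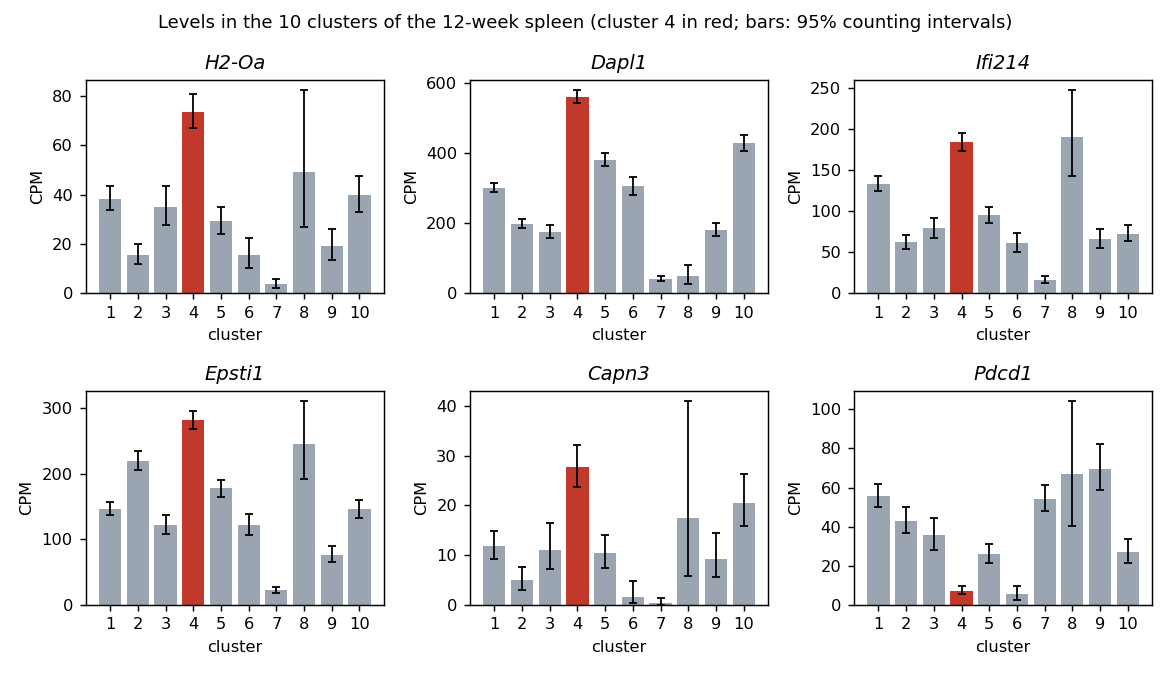
Bars give the level of each gene in CPM (y axis, from 0) in each of the 10 clusters of the 12-week spleen (x axis), with cluster 4 in red and 95% Poisson counting intervals as black lines. Cluster 4 has the tallest bar for H2-Oa, Dapl1, Epsti1 and Capn3, and for Pdcd1 only cluster 6 has a shorter bar; the wide intervals of cluster 8 come with its low depth.

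Pdcd1 (ENSMUSG00000026285, chromosome 1, 94038305 to 94052553) was low in cluster 4 although the cells had been sorted on PD-1 protein. Its 1002 cells gave 44 Pdcd1 UMIs, a level of 7.26 CPM (5.28 to 9.75), 5.89 times below the other cells together at 42.7. Only cluster 6 was as low, at 5.36, and the other 8 clusters ran from 25.9 in cluster 5 to 69.7 in cluster 9. Cd44, the other receptor used in the sort, stood at 23.3 (19.6 to 27.4) against 33.1 in the other cells, with a range of 19.3 to 123. The deposited table holds sums over each cluster, so how many of the cells held a Pdcd1 transcript was not analysed here.

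Across the library, cluster 4 was marked by genes it had less of more than by genes it had more of. Of the 7141 genes at 10 CPM or more over the library, 111 (1.55%) were higher in cluster 4 by at least 1.5-fold and 1451 (20.3%) were lower. The median log2 ratio of all these genes was -0.23, so more genes sat below 0 than above it. The ribosomal protein genes sat above it: 70 of the 81 at the minimum had a positive log2 ratio, with a median of 0.30. The share of all genes above 0 was not worked out, so counts above 0, here and below, stand beside the median of -0.23 only. When the levels were scaled so that the median gene ratio was 1, the split became 385 higher and 837 lower, so the excess of lower genes was smaller but still there. By rank, cluster 4 was the highest of the 10 clusters for 143 genes (2.0%) and the lowest for 934 (13.1%).

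**Figure D2:**
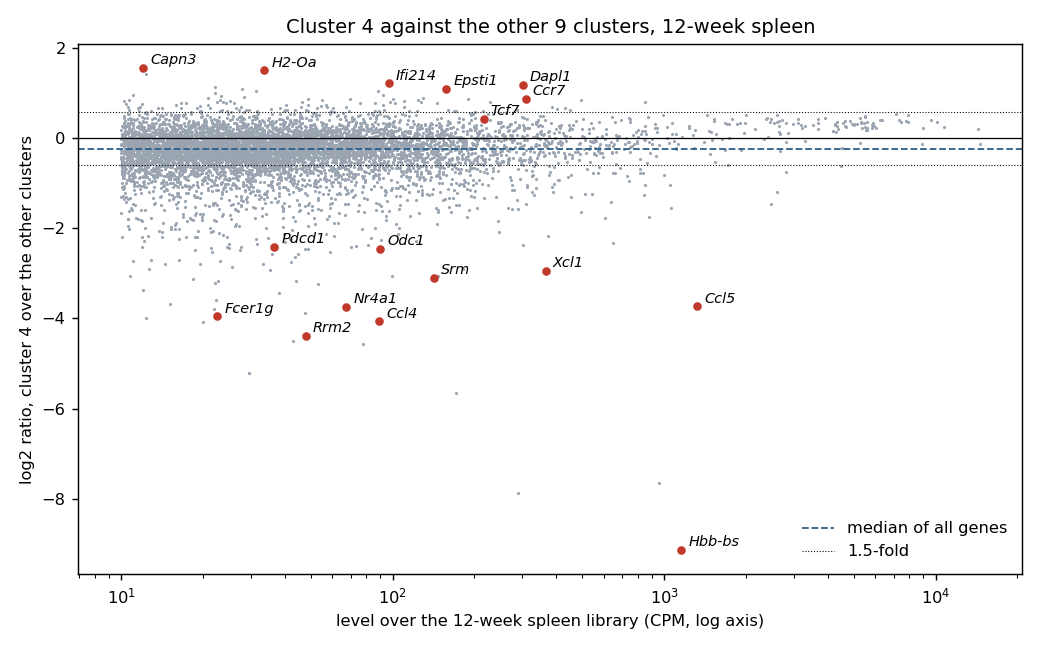
Each point is 1 of 7141 genes, with its level over the whole 12-week spleen library in CPM (x axis, log scale) and its log2 ratio of cluster 4 over the other 9 clusters (y axis); dotted lines mark 1.5-fold and the dashed line the median of all genes, -0.23. The cloud extends further down than up, with Capn3 and H2-Oa at the top and Nr4a1, Ccl4, Ccl5 and the haemoglobin gene Hbb-bs far below.

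After the naming genes, the highest log2 ratios belonged to genes of varied function. Gbp10, an interferon-induced guanylate-binding protein, stood at 26.7 CPM against 9.34 in the other cells (log2 ratio 1.42), although 84.1% of its 50-base stretches occur in transcripts of other genes, so reads of its relatives may be counted with it. Cd86, a costimulatory ligand better known from antigen-presenting cells, stood at 41.1 against 18.1, and cluster 8 was higher at 49.1. Sp140, a nuclear body protein of immune cells, stood at 155 against 78.8. The water and glycerol channel Aqp3 stood at 38.8 against 18.8, the DNA polymerase delta subunit Pold4 at 155 against 74.1, and the glutathione transferase Gstp3 at 55.8 against 26.4. Fcgrt, the neonatal Fc receptor, Lcn4, a lipocalin, and Mgst2, a microsomal glutathione transferase, had log2 ratios of 0.97, 1.10 and 0.93. Cluster 4 was the highest of the 10 clusters for 12 of the 15 genes with the highest log2 ratios. Klrd1, which encodes the CD94 chain of inhibitory and activating NK receptors, was also highest in cluster 4, at 224 against 129. Bbc3, which encodes the cell death protein PUMA, was as well, at 26.9 against 15.2, while the survival genes Bcl2 and Mcl1 had log2 ratios of -0.03 and -0.12.

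The lowest log2 ratios mostly reported what other clusters contained. Of the 15 lowest, 9 had their highest level in cluster 3 (haemoglobin, immunoglobulin and neutrophil genes such as Hbb-bs, Igkc and S100a8) and 4 in cluster 10 (cell cycle genes such as Rrm2 and Cdk1). With clusters 3, 8 and 10 left out of the reference, 3 of these 15 stayed among the 15 lowest, namely Ccl4, Fcer1g and Shmt1. That second list was led by the chemokine Ccl4, at 5.45 against 107 CPM in all other cells, and held Ccl5, Xcl1, Nr4a1, Tnfrsf9, Srm and Tyrobp. Its reference keeps cluster 7, where Ccl4 (490), Xcl1, Nr4a1, Tnfrsf9 and Srm had their highest levels, so it too reflects what another cluster contained. The median Ccl4 level of the other clusters was 18.6, and clusters 6 and 10 were below cluster 4. On the high side, 13 of the 15 genes stayed.

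Homing receptors were above the median gene. Of the 9 genes of the homing and recirculation list, all at the minimum, 4 were higher by 1.5-fold and 0 were lower. Over all genes the shares were 1.55% and 20.3%. The median log2 ratio of the list was 0.30. Ccr7, which guides cells into lymph nodes, stood at 495 CPM (478 to 513) against 270 in the other cells, second to cluster 8. Actn1, which encodes an actin crosslinker, and Itgae, an integrin chain, had log2 ratios of 0.61 and 0.67. S1pr1, the receptor for exit from lymphoid organs, was at 146 against 134, and Il7r, the receptor chain for the survival cytokine IL-7, at 180 against 220, so those 2 did not follow Ccr7.

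The transcription factors of naive and memory T cells differed less. Of the 9 on that list, 0 were higher by 1.5-fold and 1 was lower, against 1.55% and 20.3% of all genes. Their median log2 ratio was 0.16, and cluster 4 was the highest for none of them. Lef1 stood at 472 against 332 (log2 ratio 0.50), Tcf7, the gene of TCF-1, at 275 against 204 (0.43) and the chromatin organiser Satb1 at 232 against 172 (0.43). For each of these 3, 2 other clusters were higher. Id3, which antagonises E proteins, was the 1 below, at 152 against 251. Scaling by the median gene ratio put 3 of the 9 above 1.5-fold and 0 below, against 385 and 837 of all 7141 genes under that scaling. Of 11 quiescence genes 10 had positive log2 ratios, with a list median of 0.20 where that of all genes was -0.23. By 1.5-fold 1 was higher and 0 were lower, against 1.55% and 20.3% of all genes. The 1 was Pik3ip1, an inhibitor of PI3K signalling, at 132 against 76.0.

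Interferon-stimulated genes were higher as a group, without being the highest of the library. Of the 26 on the list 22 were at the minimum, of which 9, the naming gene Epsti1 included, were higher by 1.5-fold and 0 lower. Among all genes 1.55% were higher and 20.3% lower. The median log2 ratio of the list was 0.47. Ifit3 stood at 47.0 CPM against 24.3, the deconjugating enzyme Usp18 at 29.5 against 17.5, Zbp1, a sensor of Z-form nucleic acids, at 84.0 against 51.7, and Ifi27l2a at 1314 against 756. The summed level of the list was 3170 in cluster 4, second to cluster 2 at 3536. Bst2 and Ifi35 had log2 ratios of -0.20 and -0.14. After scaling by the median gene ratio, 15 of the 22 were higher, against 385 of all 7141 genes.

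The Ifi200 family, whose 13 listed genes in the table span positions 173350879 to 174031810 of chromosome 1 (GRCm38, GENCODE M21), had a median log2 ratio of 0.67 over the 8 at the minimum. All 8 were above 0, and 4, the naming gene Ifi214 included, were higher by 1.5-fold, against 1.55% of all genes. These 4 genes, Ifi206, Ifi214, Ifi213 and Ifi209, follow each other on the chromosome between 173468485 and 173647928, with log2 ratios of 0.83, 1.22, 0.81 and 0.85. Further along, Ifi208 stood at 0.52, Mndal at 0.32 and Ifi203 at 0.24, and Aim2, the inflammasome DNA sensor at the near end, at 0.06. These genes are close copies: 14.6% of the 50-base stretches of Ifi214 transcripts, 33.7% of those of Ifi209 and 25.6% of those of Ifi206 also occur in transcripts of another gene, so counts may be split between them. The mice carry NZB and NZW alleles while the reads were aligned to the GRCm38 reference, and the part of allele differences in these levels was not tested.

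The 250 bases before the RefSeq start of each gene were searched on both strands for the core of the interferon response element, spelled TTTCNNTTT, since the interferon genes were higher together. Of the 15 genes with the highest log2 ratios 13 had a promoter entry, and 2 of these, Ifi214 and Ifit3, held the motif, a share of 15.4% against 8.77% of the 5669 genes at the minimum with an entry and 10.8% of all genes. On the interferon-stimulated list 12 of 19 genes held it. Among the 5 naming genes it occurred in Ifi214 alone; H2-Oa, Dapl1, Epsti1 and Capn3 had no match to these letters in the window. The core bound by TCF-1 and LEF-1, CTTTGAT, occurred in 0 of the 13, against 2.63% of the genes at the minimum. The windows of the 2 genes with the interferon motif are shown 5′ to 3′ on the gene's strand (RefSeq, GRCm38.p6), with the matches in capitals. Ifi214 lies on the minus strand, window chr1:173535958-173536207, and Ifit3 on the plus strand, window chr19:34583279-34583528.
Ifi214: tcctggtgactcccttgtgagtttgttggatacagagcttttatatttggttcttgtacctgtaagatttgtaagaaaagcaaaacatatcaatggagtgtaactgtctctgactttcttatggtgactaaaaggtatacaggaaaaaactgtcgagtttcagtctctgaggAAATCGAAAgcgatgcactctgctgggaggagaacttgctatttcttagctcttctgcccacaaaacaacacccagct
Ifit3: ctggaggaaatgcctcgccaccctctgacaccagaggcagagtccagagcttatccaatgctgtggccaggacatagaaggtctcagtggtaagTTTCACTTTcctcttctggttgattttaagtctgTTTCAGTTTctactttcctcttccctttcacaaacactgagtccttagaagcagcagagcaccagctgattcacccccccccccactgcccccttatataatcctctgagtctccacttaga

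H2-Oa was not part of a general MHC class II pattern. Its partner chain gene H2-Ob stood at 20.3 CPM (16.9 to 24.2) against 12.3, with 35.5 in cluster 3, and H2-DMa, the alpha chain of the exchange factor that H2-O restrains, at 49.8 against 37.4, second to cluster 3. The beta chain genes of that factor were nearly absent: H2-DMb1 gave 1 UMI and H2-DMb2 gave 8. The classical class II genes and the invariant chain were near the medians of the other clusters: H2-Aa stood at 4.95 (median 3.50), H2-Ab1 at 7.10 (7.48), H2-Eb1 at 4.62 (4.88) and Cd74 at 20.0 (22.9). They were far below cluster 3, at 611, 288, 475 and 1981. Ciita, the master regulator of class II genes, gave 1 UMI. Over the 7 class II genes at the minimum, 2, the naming gene H2-Oa included, were higher and 4 lower, against 1.55% and 20.3% of all genes. With clusters 3, 8 and 10 out of the reference the median log2 ratio turned from -1.96 to 0.37. MHC class I and antigen processing genes stayed close to the other cells, with a median log2 ratio of 0.03. Of these 14 genes 0 were past 1.5-fold in either direction, against 1.55% higher and 20.3% lower of all genes.

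Genes induced by the antigen receptor were lower than in the other cells pooled. Of 13 on the list 10 were at the minimum, and 8 of them were lower by 1.5-fold and 0 higher, against 20.3% and 1.55% of all genes. The median log2 ratio of the 10 was -1.31. Nr4a1, the orphan nuclear receptor used as a reporter of recent antigen receptor signalling, was the lowest of the 10 clusters at 5.12 CPM (3.48 to 7.26), 15.7 times below the other cells at 80.5. The other clusters ran from 12.4 in cluster 2 to 211 in cluster 7, so no cluster overlapped with it. Nr4a2 was the lowest as well, at 4.95 against 32.1, and Tnfrsf9, the costimulatory receptor 4-1BB, stood at 13.4 against 118. That 118 reflects 523 in cluster 7: the median of the other clusters was 24.9, and clusters 2 and 6 were below cluster 4. Irf8 was at 9.74 against 35.6 and Egr1 at 38.8 against 64.2. The summed level of the 13 genes was 493 in cluster 4, near clusters 2, 6, 10 and 3 at 458, 496, 503 and 517. Cd69 and Cd5 were the 2 that did not differ by 1.5-fold, at 134 against 151 and 200 against 201. The receptor complex and its proximal signalling genes were at ordinary levels, with a median log2 ratio of 0.06. Of these 14 genes 0 were past 1.5-fold, against 1.55% higher and 20.3% lower of all genes. Cd3d stood at 1291 against 1026, with cluster 5 next at 1279. The immediate-early genes of the AP-1 and NF-kB list, which respond to many stimuli, were lower by 1.5-fold in 2 of 9, a share near the 20.3% of all genes. After scaling by the median gene ratio 0 of the 9 were lower, against 837 of all 7141 genes.

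Genes of ribosome biogenesis and growth were lower than in the other cells pooled, although ribosomal protein transcripts were abundant. All 7 on the list were lower by 1.5-fold, against 20.3% of all genes, with a median log2 ratio of -1.64. Cluster 4 was the lowest of the 10 clusters for 4 of them: Srm, Ncl, Nop56 and Odc1. Srm, the spermidine synthase, stood at 18.8 CPM against 168, and Odc1, which makes the precursor of spermidine, at 18.3 against 105. Nucleolin (Ncl) stood at 179 against 559, with the next lowest cluster at 221. Myc, which drives such genes, stood at 65.8 against 172. The highest levels of all 7 were in cluster 7. The reference includes that cluster. Cluster by cluster the difference was smaller: the median Srm level of the other 9 clusters was 45.3 and the median Odc1 level 42.8, while Npm1, at 1201 in cluster 4, was above its median of 1116. The summed level of the 7 genes was 2160 in cluster 4, inside the range of 1562 to 14518, with clusters 1, 3 and 8 below it. The chaperone Hsp90aa1 was also the lowest in cluster 4, at 201 against a range of 364 to 1633. Under scaling by the median gene ratio 6 of the 7 biogenesis genes stayed lower by 1.5-fold, against 837 of all 7141 genes.

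Most cytotoxic and effector genes were lower than in the other cells pooled. Of 16 on the list 11 were at the minimum, of which 7 were lower by 1.5-fold and 1 higher, against 20.3% and 1.55% of all genes. The median log2 ratio of the 11 was -0.65. The summed level of all 16, at 1066 CPM, was the lowest of the 10 clusters, against 1369 to 10582. Ccl5, a chemokine of memory and effector CD8 T cells, stood at 119 (110 to 128) against 1582, with 83.0 in cluster 7 below it and 8055 in cluster 2 far above. Xcl1 stood at 55.1 against 432, Gzmk at 4.62 against 29.4, and interferon gamma (Ifng) at 1.82 against 11.8. Cluster by cluster these gaps were smaller. The median Xcl1 level of the other clusters was 68.8, with 2088 in cluster 7. Over all 10 clusters the median was 7.63 for Gzmk and 3.88 for Ifng. Cxcr6, a receptor that holds T cells in tissues, was the 1 that was higher, at 125 against 81.8, with 2 clusters above it. Ctsw, Nkg7 and Cst7 did not differ by 1.5-fold, with log2 ratios of -0.17, -0.40 and -0.41. After scaling by the median gene ratio 5 of the 11 were lower by 1.5-fold, against 837 of all 7141 genes. Tbx21, the gene of T-bet, was the lowest of all clusters at 4.62 against 22.2, and Eomes stood at 44.7 against 86.5.

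Most inhibitory receptor genes were lower than in the other cells, except Ctla4 and Btla. Of the 10 genes measured, Pdcd1 included, 7 were at the minimum. Of these, 5, Pdcd1 and the next 4 given here, were lower by 1.5-fold and 0 higher. Among all genes 20.3% were lower and 1.55% higher. Tigit stood at 5.28 CPM against 19.3, Cd160 at 22.6 against 75.8, Cd200 at 18.5 against 38.8 and Lag3 at 21.3 against 36.1. Cluster 6 was below cluster 4 for each of these 4. Ctla4 stood at 39.1 against 31.2, Btla at 12.0 against 14.4, and Havcr2, the gene of TIM-3, gave 0 UMIs, under the floor of 3 UMIs. The exhaustion-associated factor Tox was at 65.2 against 87.4. The adaptor genes Tyrobp and Fcer1g, through which NK-type receptors signal, gave 3 and 5 UMIs and were the lowest of the 10 clusters.

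In the remaining lists few genes were higher. Over all genes at the minimum 1.55% were higher and 20.3% lower, so 0 higher in lists this short does not set them apart. Of the 7 virtual memory genes, which mark memory-like cells formed without foreign antigen, 0 were higher and 1, Eomes, was lower, with a median log2 ratio of -0.19; after scaling by the median gene ratio the median was 0.05. Of 13 effector transcription factors 5 were at the minimum, with 0 higher and 2 lower. Of 13 cytokine receptor genes at the minimum 0 were higher and 1, the IL-18 receptor gene Il18r1, was lower. In the Ikaros family Ikzf2, the gene of Helios, stood at 67.0 CPM against 118. The 3 NK receptor genes at the minimum were Klrd1, which was higher, and Klrk1 and Klrc1, which were lower, at 3.30 against 12.2 and 5.78 against 15.7. All 7 proliferation genes were lower, with Mki67 at 3.30 against 45.7, and with clusters 3, 8 and 10 left out of the reference their median log2 ratio went from -3.24 to -0.79. Cd24a, high on immature T cells, stood at 2.15 against 27.1, and Dntt gave 7 UMIs. By gap to the next cluster, Hscb, a factor of iron-sulphur cluster assembly, Gngt2, a G protein gamma subunit, and Igbp1, a phosphatase regulator, also stood highest in cluster 4, at 117, 40.4 and 81.8, against at most 89.0, 30.9 and 62.8 elsewhere. Nfkbid, an atypical NF-kB inhibitor, and Atad3a, a mitochondrial ATPase, were the lowest, at 4.95 and 6.27 against at least 14.9 in every other cluster.

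**Figure D3:**
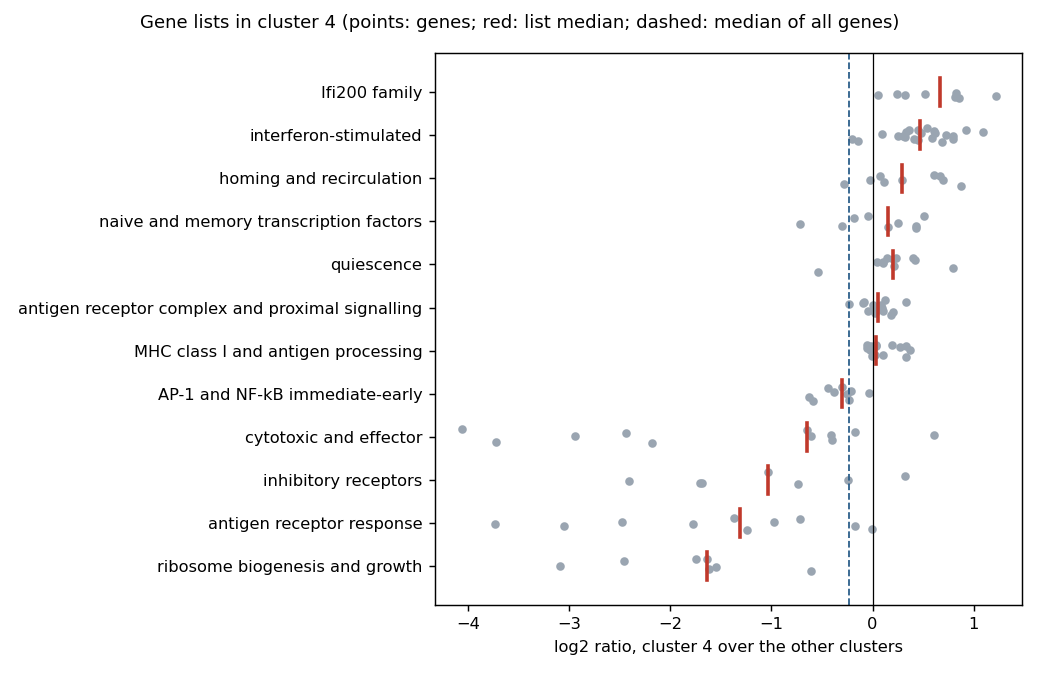
Each grey point is a gene of the named list at 10 CPM or more, placed by its log2 ratio of cluster 4 over the other 9 clusters (x axis), for 12 of the lists; red bars mark list medians, the dashed line the median of all genes and the solid line 0. The medians of the lists drawn run from 0.67 for the Ifi200 family to -1.64 for ribosome biogenesis and growth, and the cytotoxic list has the longest tail, down to -4.06 for Ccl4.

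Within its library cluster 4 was most like clusters 5 and 6, with median absolute log2 differences of 0.24 and 0.25 over the 7141 genes, followed by cluster 3 at 0.26. By Spearman correlation across genes cluster 1 came first, at 0.967 against 0.965 for cluster 5 and 0.944 for cluster 6, and at a minimum of 50 CPM cluster 6 came before cluster 5. Against cluster 5 (718 cells), which has a medium Pdcd1 level, the highest log2 ratios were those of Capn3 (1.34), H2-Oa (1.30), Gbp10 (1.26), Ctla2b (1.22) and Cd55 (1.21). The lowest were those of Nr4a1 (-3.21), Tyrobp (-2.26), Fcer1g (-2.20), Nrgn (-1.97) and Atad3a (-1.79), and Pdcd1 was among the 8 lowest at -1.70. Against cluster 6 (503 cells), the other cluster with little Pdcd1, the Pdcd1 log2 ratio was 0.38. What set the 2 apart was different: Capn3 was at 27.7 against 1.61 CPM, Myb, a transcription factor of immature and self-renewing cells, at 96.0 against 13.9, and the protease inhibitor-like genes Ctla2b and Ctla2a at 24.3 against 2.14 and 152 against 30.0. In cluster 6 the floor of 3 UMIs is 1.61 CPM, so its Capn3 level lies at the floor and its Ctla2b level just above. The size of those 2 ratios is therefore imprecise. Below cluster 6 were the RNA methyltransferase genes Mettl1 (-2.34) and Trmt61a (-1.97), Ccl5 (-2.18) and Nr4a1 (-2.13). Capn3 was thus the highest log2 ratio against both, and Nr4a1, Trmt61a and Tyrobp were among the 8 lowest against both.

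**Figure D4:**
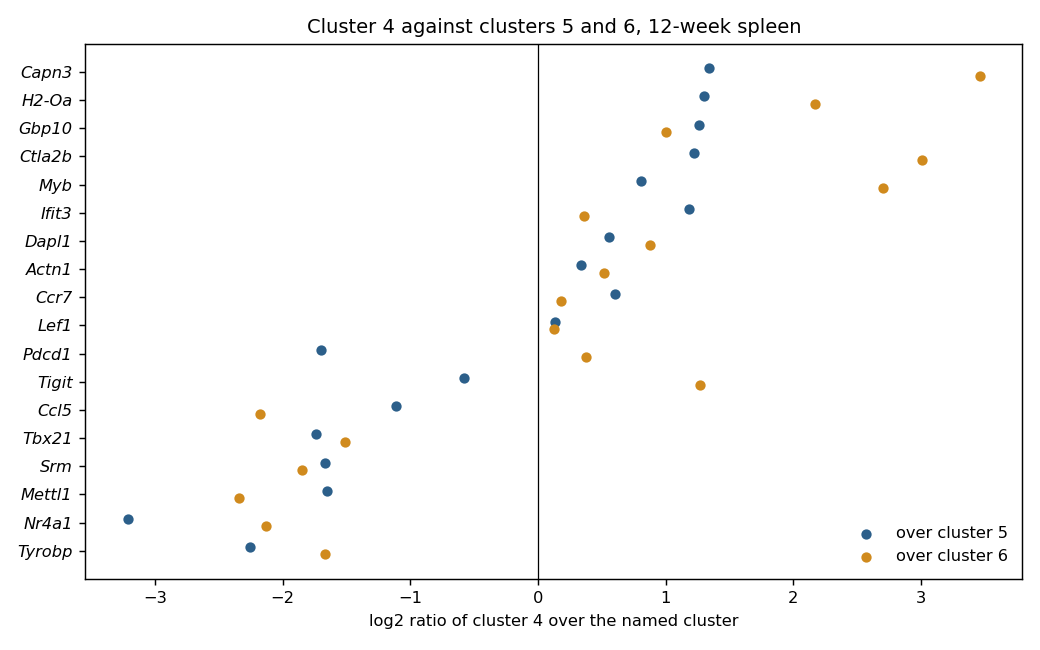
For 18 genes (y axis) the points give the log2 ratio of cluster 4 over cluster 5 (blue) and over cluster 6 (orange) in the 12-week spleen. Capn3, H2-Oa and Ctla2b lie to the right for both, Nr4a1, Tyrobp and Srm to the left for both, and Pdcd1 lies at -1.70 for cluster 5 and 0.38 for cluster 6.

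The most used antigen receptor variable segments had shares close to those in the other cells. Of the 14440 Trbv UMIs in cluster 4, Trbv13-1 took 24.1% against 20.2% in the other cells, Trbv13-2 took 20.2% against 21.4% and Trbv1 took 12.1% against 12.5%. The share of Trbv13-1 was above the range of 16.1 to 23.1% over the single other clusters, and those of Trbv13-2 and Trbv1 were inside theirs. Of 6585 Trav UMIs the most used segment, Trav3-3, took 10.9% against 10.0%. A cell contributes several UMIs of the same chain, so these shares are not counts of cells, and cells of 1 clone cannot be told apart here from cells that share a segment.

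The 28-week spleen held a cluster with a similar pattern, cluster 7 with 390 of 6481 cells (6.02%). Across 6868 genes at the minimum in both libraries, its log2 ratios over the rest of its own library had a Pearson r of 0.79 with those of cluster 4, given as a description across genes, and the next cluster, number 3, reached 0.71. The 2 clusters share a high share of ribosomal protein UMIs, 38.6% and 39.0%. All 5 naming genes were above the rest of that library in cluster 7: Dapl1 at 552 CPM against 236, H2-Oa at 49.3 against 21.3, Epsti1 at 418 against 260, Ifi214 at 137 against 90.9 and Capn3 at 9.94 against 5.19. Of the 15 highest genes of cluster 4, 14 were above 0 there, the exception being Ifit3. The share of all genes above 0 in that cluster was not worked out, so its counts here and below stand without that background. Its Pdcd1 level of 21.3 was the lowest but 1 of the 11 clusters, though nearer to the rest, at 36.0, than in the 12-week spleen.

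The match did not extend to most interferon-stimulated genes, as ratios within each library. In cluster 7 of the 28-week spleen 4 of the 22 interferon-stimulated genes at the minimum were above the rest of the library, with a median log2 ratio of -0.17, against 20 of 22 and 0.47 in cluster 4 at 12 weeks. The 4 were Epsti1, Ifi27l2a, Usp18 and Zbp1. Ifit3 stood at 67.4 against 97.9 and Isg15 at 123 against 175. As levels, both were above those of cluster 4 at 12 weeks, 47.0 and 87.3. The whole libraries differed too, with Ifit3 at 95.3 in the 28-week and 28.3 in the 12-week spleen, and Isg15 at 171 and 66.5. Ccr7 (263 against 173) was again higher, and all 7 biogenesis genes were again below the rest, with a median of -1.01. Trdc went the other way, at 26.9 against 10.7 in the 28-week cluster. With 1 library at each age, age and library cannot be told apart, and the age field of the 28-week spleen entries reads 12 weeks while their titles read 28 weeks; the titles were used.

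In the 28-week kidney the match was partial. The highest Pearson r over 6785 genes was 0.55, for kidney cluster 6 with 604 cells, and cluster 3 followed at 0.54. In kidney cluster 6 all 22 interferon-stimulated genes were above the rest of the kidney library and Nr4a1 was at 2.59 CPM against 95.3. Above the rest as well were 8 of 8 Ifi200 genes and 10 of the 15 highest genes of cluster 4, but 1 of 10 antigen receptor response genes and 0 of 7 biogenesis genes. For kidney cluster 6 too, the share of all genes above the rest was not worked out. Other features went the other way: it had the highest Pdcd1 level of the 33 clusters of the series, 229, with H2-Oa at 8.28, Dapl1 at 49.7 and Gzmk at 902. Over the whole libraries, Dapl1 stood at 301 in the 12-week spleen, 263 in the 28-week spleen and 69.9 in the kidney, and H2-Oa at 33.6, 23.7 and 16.2. Capn3 stood at 12.1, 5.59 and 3.14, so the level of cluster 4 was the highest of all 33 clusters for Capn3 and, with an interval overlapping that of cluster 7 of the 28-week spleen, for Dapl1, whereas H2-Oa was higher, at 98.3, in cluster 10 of the 28-week spleen. That cluster also had the highest Cd74 (16243) and H2-Aa (5288) levels of its library, unlike cluster 4.

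**Figure D5:**
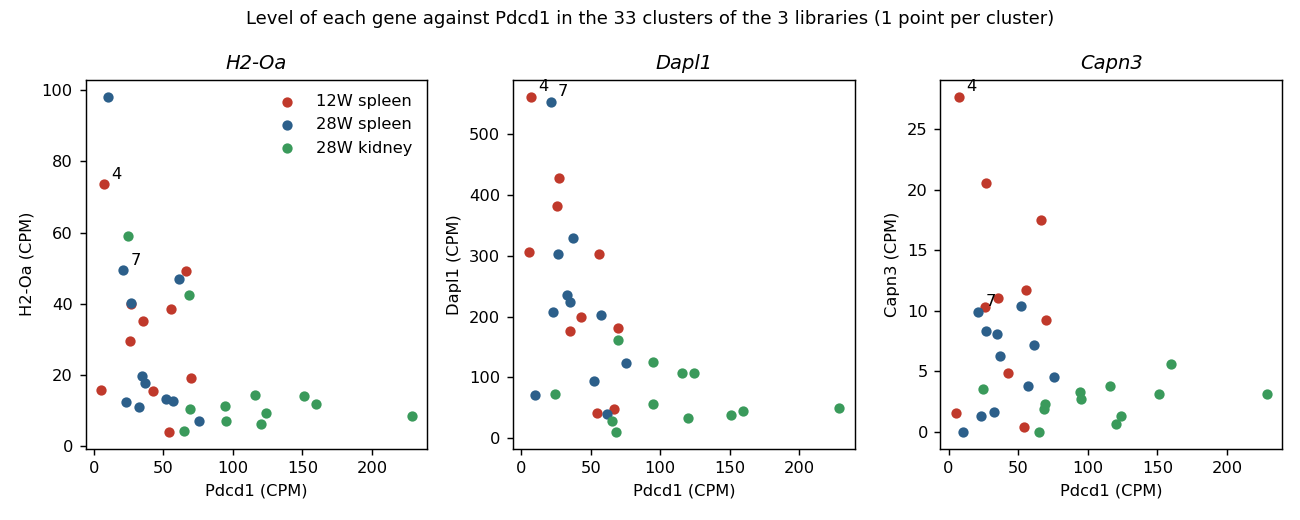
Each point is 1 of the 33 clusters of the 3 libraries, placed by its Pdcd1 level (x axis) and its level of H2-Oa, Dapl1 or Capn3 (y axis, 1 panel each), all in CPM and coloured by library; the numbers mark cluster 4 of the 12-week spleen and cluster 7 of the 28-week spleen. Cluster 4 lies at the left edge with the highest Dapl1 (561) and Capn3 (27.7), and the kidney clusters lie low on all 3 panels except for H2-Oa in 2 of them, at 58.9 and 42.4.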

How the data were processed

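Per the labels and the methods, spleen or kidney cells sorted as PD-1+CD44+CD8+ were run on the Chromium 5′ platform, and the authors aligned and counted UMIs with Cell Ranger (2.1.1 in the submitters' processing notes) on GRCm38. They deposited each cell's cluster number and, per gene and cluster, a mean count per cell scaled for depth, a score with no fixed unit. Their fold change and p-value columns were not used. Each mean count column was divided by its smallest positive value, which gave whole numbers (UMIs) for 100% of values within 0.001. Levels (CPM) are UMIs per 1000000 of the cluster's total. Log2 ratios are log2 of the level plus 1 in cluster 4 over the level plus 1 in the other 9 clusters pooled; higher or lower means past 1.5-fold in those ratios, among genes at 10 or more over the library, with 79 receptor segments left out. How doublets were treated is not given in the sources used here. With 1 library per group no test was run. Poisson and binomial limits are exact at 95%. The members and the 32 gene lists (267 genes, 262 in the table, 201 at the minimum) were chosen with earlier results of these data known. Genes named are those on the lists, the 15 highest and 15 lowest log2 ratios, the 10 and 5 with the largest gap to the next cluster, the 8 highest and lowest against each of the 2 most like clusters, and the 3 most used segments per chain. Coordinates are from GENCODE M21. Python 3 with pandas, numpy and scipy was used, tested on simulated data. Some items were not reported here.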

Additional observations from a re-analysis of the deposited data

How the results depend on the processing

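The 12-week library is 1 pool, so no value has a replicate error, and low genes in cluster 8 are limited by its depth. The 111 higher and 1451 lower genes became 58 and 886 with a pseudocount of 10, 282 and 2688 with no minimum, 48 and 519 at a minimum of 50, and 385 and 837 after scaling by the median gene ratio. Without receptor, mitochondrial and ribosomal protein genes, 277 were higher. The Pdcd1 log2 ratio of -2.40 ran to -1.61 with a pseudocount of 10 and stayed within its counting interval otherwise. The homing median was 0.47 without those genes and 0.53 after median scaling, the interferon median 0.64 and 0.70, and the cytotoxic median was -0.42 after median scaling. The biogenesis median was -1.47 without those genes, -1.40 after median scaling, -1.51 with the other clusters weighted equally and -1.79 without clusters 3, 8 and 10. Leaving out those 3 clusters turned Jchain (0.41), H2-Aa (0.37), H2-Eb1 (0.10), Cd74 (0.32), Hmgb2 (0.22), Ube2c (0.76), Cd79a (0.60) and the class II median (0.37) positive, and those clusters hold 54.0 to 98.9% of the UMIs of these 7 genes. The most like cluster was 1 and the next 5 by Spearman correlation, and 6 and then 5 at a minimum of 50; the matches at 28 weeks did not change. The medians of the virtual memory and BCL2 family lists, -0.19 and -0.03, became 0.05 and 0.21 after median scaling.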
